A study of Mus musculus with 8 samples.

Results

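Duct identity was read from 9 genes out of 22180 with a value: the duct transcription factors Sox9 and Onecut1, the keratins Krt7, Krt8, Krt18 and Krt19, and the apical products Muc1, Tff1 and Cftr. The genes were chosen by name as known duct genes, and for each the row of the deposited table with the highest mean over the arrays was kept. They were measured in total RNA of whole pancreas of C57 BL6 mice on 8 whole-transcript arrays. Lmna knockout pancreas (KO, 4 arrays, labelled LmnaKO) was set against control pancreas (WT, 4 arrays, labelled LmnaWT). Both groups had received tamoxifen intraperitoneally at 3 mg per 40 g of body weight, and pancreata were taken 6 days later. Each group held 3 males and 1 female, the female being replicate 4 in both. By the title of the series, lamin A/C, the nuclear envelope filament protein that Lmna encodes, was ablated in acinar cells, so the other cells of a KO pancreas may keep it. The sources used here do not give the age of the mice, the Cre driver or the targeted allele. By its sex, the female array of each group is from another animal than the male arrays. The sources do not say that the 3 male arrays of a group are separate animals. The p-values thus cover only the differences among these 8 arrays, which among the males may be technical.

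The exocrine pancreas is built of acini, which secrete digestive enzymes, and of ducts, which carry the secretion and add bicarbonate and fluid. Duct cells express SOX9 and ONECUT1, simple-epithelium keratins and apical proteins such as the chloride channel CFTR. When acini are injured, acinar cells can lose their enzymes and take on duct features, a change called acinar-to-ductal metaplasia, in which SOX9 and keratin 19 are the markers most used. Keratins are obligate pairs: keratin 7 and keratin 8 are type II partners of the type I keratins 18 and 19.

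In KO pancreas Krt19 rose 2.19-fold, while Muc1 fell 2.15-fold and Tff1 fell 1.88-fold. The other 6 genes did not pass the test: Sox9 and Onecut1 read lower on average, Krt7, Krt8 and Krt18 higher, and Cftr was near its WT level. Of the 9 genes, 1 was thus called higher (limma, Benjamini-Hochberg adjusted p under 0.05), against 14.6% of all genes, and 2 were called lower, against 6.99%, or 3 in either direction, against 21.6%. The groups did not overlap in 3 of the 9, against 27.4% of all genes. Values are log2 expression, a change is a log2 difference (KO minus WT) with its standard error, and n is 4 arrays per group throughout. The exact permutation tests are two-sided and cannot go below 0.0286 with 4 against 4 arrays. In bulk tissue, fewer cells of a type and less RNA per cell cannot be told apart.

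**Figure D1:**
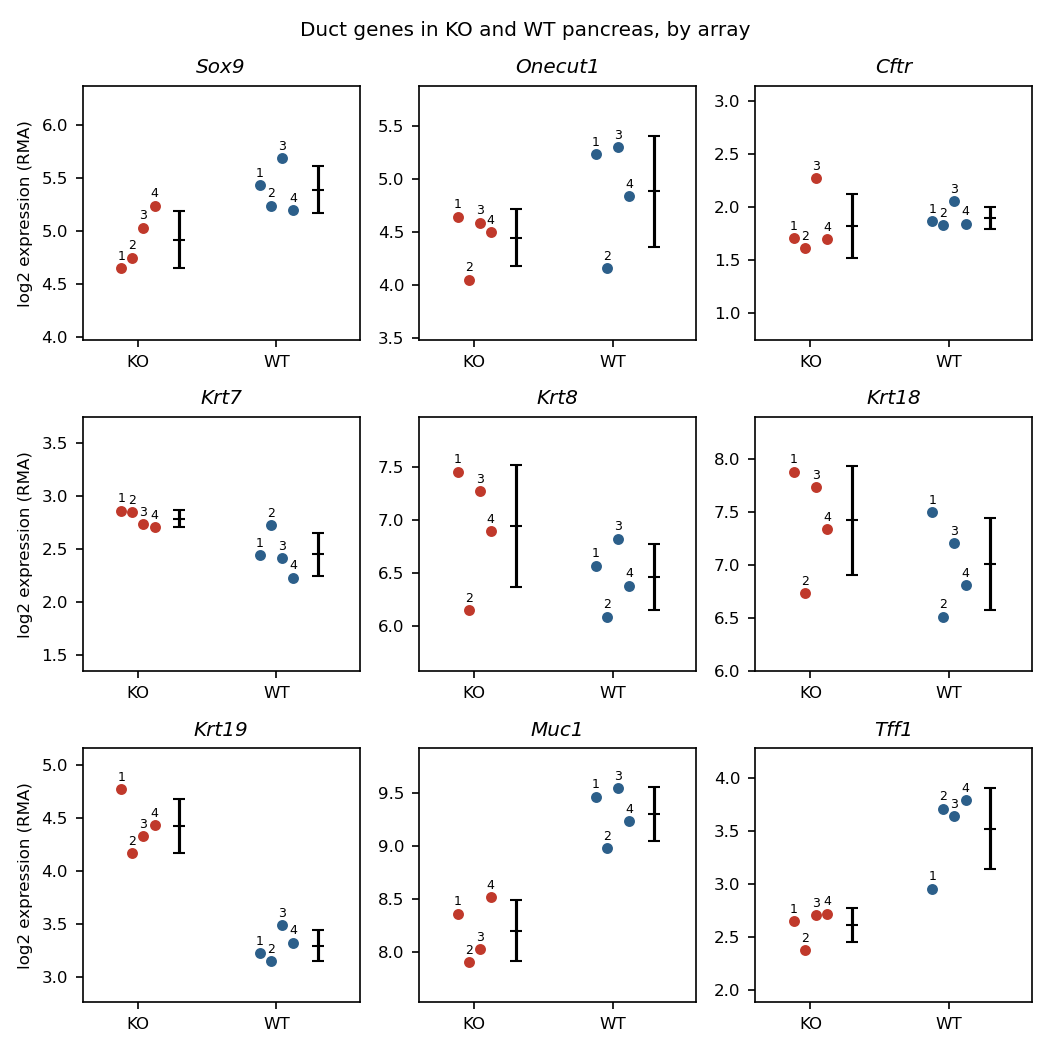
Log2 expression of the 9 duct genes (y axis, each panel spanning 2.4 log2 units) in the 4 KO arrays (left) and the 4 WT arrays (right). Points are arrays with their replicate numbers, and bars show mean ± SD. KO lies wholly above WT for Krt19 and wholly below it for Muc1 and Tff1.

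The arrays as a whole bear on how these values read. The gene values of the KO arrays were spread more widely, with an interquartile range of 2.88 to 3.03 log2 units in KO and 2.11 to 2.48 in WT. The share of genes called depended on the mean level. It was 0.486% higher and 6.93% lower below 2, 12.1% higher and 9.35% lower at 2 to 4, and 37.9% higher and 3.27% lower at 4 to 6. At 6 to 8 it was 33.1% higher and 5.43% lower, and at 8 or more 22% higher and 14.2% lower. Lmna itself read 2.33 to 2.73 in KO and 2.54 to 3.13 in WT (-0.24 ± 0.15, limma adjusted p = 0.264), and since the place of its probes relative to the deletion is unknown, it does not check the labels. The acinar markers Cpa1 and Ctrb1 read at least 11.97 on each of the 8 arrays.

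SOX9 is the transcription factor that keeps duct and progenitor identity. Sox9 read 4.64, 4.75, 5.03 and 5.23 in KO 1 to KO 4, against 5.43, 5.24, 5.68 and 5.19 in WT 1 to WT 4. KO 1, KO 2 and KO 3 lay below all WT arrays, and the KO female (KO 4) lay just above the WT female. The change was -0.47 ± 0.17 (95% interval -0.85 to -0.10, limma adjusted p = 0.069, exact permutation p = 0.0571), so Sox9 did not pass. The change in the female pair set against that in males differed by 0.68 ± 0.36 (limma, unadjusted p = 0.0961, not passing after adjustment), with 1 female per genotype.

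ONECUT1 (HNF6) acts upstream of duct differentiation and also in acinar cells. Onecut1 read 4.64, 4.05, 4.59 and 4.50 in KO 1 to KO 4, and 5.23, 4.16, 5.30 and 4.84 in WT 1 to WT 4. The groups overlapped through WT 2, which lay below 3 of the KO arrays. The change was -0.44 ± 0.25 (95% interval -0.996 to 0.12, limma adjusted p = 0.214, exact permutation p = 0.2). Within each of the 4 same-numbered pairs the KO array was the lower. Without WT 2 the change was -0.68 and passed (limma adjusted p = 0.0366).

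The calls of both factors depended on scaling. After a second quantile normalization, which makes the spread of all arrays equal, Sox9 changed by -0.89 (limma adjusted p = 0.0095) and Onecut1 by -0.81 (limma adjusted p = 0.0475). After cyclic loess the changes were -0.87 (limma adjusted p = 0.00812) and -0.80 (limma adjusted p = 0.0339). After median centring they were -0.34 (limma adjusted p = 0.199) and -0.30 (limma adjusted p = 0.458). Neither factor read higher in KO under any of the 19 alternatives run.

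KRT19, the type I keratin that pathologists use to stain ducts, gave the rise among the keratins. Krt19 read 4.77, 4.17, 4.33 and 4.43 in KO 1 to KO 4, and 3.22, 3.15, 3.49 and 3.33 in WT 1 to WT 4. Every KO array lay above every WT array, by at least the distance between 4.17 and 3.49. The mean was 4.43 ± 0.25 in KO and 3.30 ± 0.15 in WT (SD). The change was 1.13 ± 0.15 (95% interval 0.80 to 1.47, limma adjusted p = 0.00239, exact permutation p = 0.0286). Over the 19 alternatives it ranged from 0.87 to 1.27, and each of them called it. Krt19 entered the level filter of 4, which is among them, only through its KO mean, so that call is no separate support. Krt19 remained a gene of modest signal, at percentile 70 when genes are ranked by mean level.

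Keratins 8 and 18 are the pair that acinar cells share with ducts. Krt8 read 7.46, 6.15, 7.27 and 6.90 in KO 1 to KO 4, and 6.57, 6.09, 6.82 and 6.38 in WT 1 to WT 4. KO 1, KO 3 and KO 4 lay above all WT arrays, while KO 2 lay below 3 of them. The change of Krt8 was 0.48 ± 0.27 (95% interval -0.13 to 1.09, limma adjusted p = 0.215, exact permutation p = 0.171). Without KO 2 it was 0.74 and passed (limma adjusted p = 0.0425).

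Krt18 read 7.88, 6.73, 7.73 and 7.33 in KO 1 to KO 4, and 7.50, 6.51, 7.20 and 6.80 in WT 1 to WT 4. The groups overlapped, with WT 1 above KO 4 and KO 2 below 3 of the WT arrays. The change of Krt18 was 0.42 ± 0.28 (95% interval -0.21 to 1.04, limma adjusted p = 0.286, exact permutation p = 0.257). The table holds a second, dimmer row for Krt18, with 4.22, 3.16, 4.28 and 3.73 in KO and 3.57, 3.40, 3.34 and 3.36 in WT, and it too did not pass (0.43 ± 0.24, limma adjusted p = 0.232 over all rows). Within each of the 4 same-numbered pairs the KO array was the higher, by 0.06 to 0.89 for Krt8 and by 0.22 to 0.53 for the brighter Krt18 row. In the dimmer Krt18 row KO 2 (3.16) lay below WT 2 (3.40). With the replicate number as a block the limma adjusted p was 0.066 for Krt8 and 0.0541 for Krt18. Scaling moved both strongly: after a second quantile normalization Krt8 changed by 0.11 and Krt18 by 0.09, and after cyclic loess by 0.09 and 0.05.

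Krt7, the type II keratin found in ducts and not in normal acini, was dim. It read 2.86, 2.85, 2.74 and 2.71 in KO 1 to KO 4, and 2.44, 2.72, 2.41 and 2.23 in WT 1 to WT 4. WT 2 alone overlapped the KO arrays. The change was 0.34 ± 0.13 (95% interval 0.05 to 0.62, limma adjusted p = 0.0866, exact permutation p = 0.0571). It passed without WT 2 (0.43, limma adjusted p = 0.0365), after median centring (0.47, limma adjusted p = 0.0245) and with array weights (0.37, limma adjusted p = 0.0431).

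**Figure D2:**
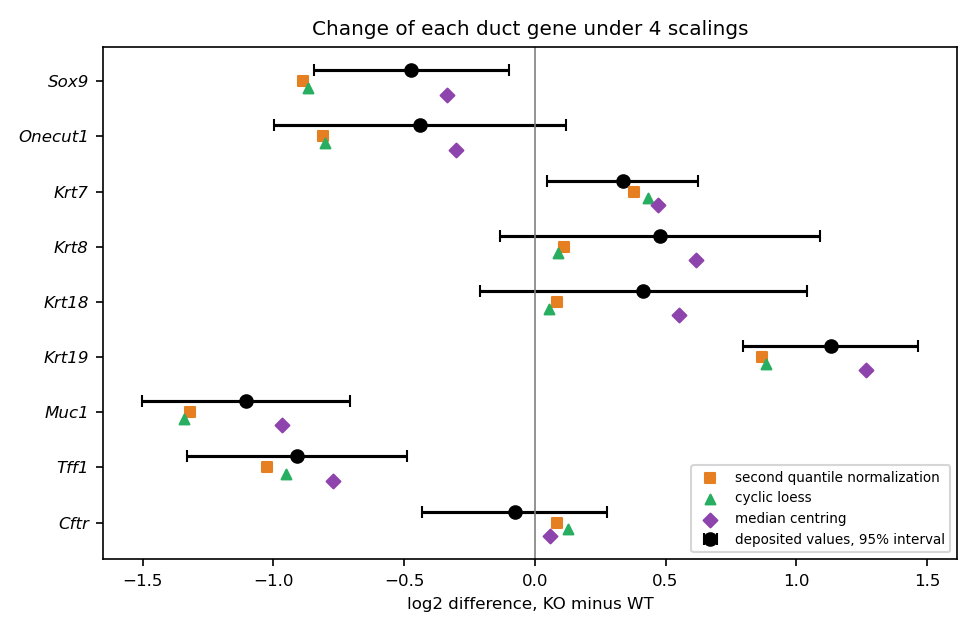
Log2 difference (x axis, KO minus WT) of each duct gene (y axis). Black points are the deposited values with 95% intervals from limma, and coloured marks are the same difference after 3 other scalings. Krt19 stays right of 0 and Muc1 and Tff1 stay left of it in all 4, Krt8 and Krt18 move close to 0 after quantile normalization and loess, and Cftr lies on either side of 0.

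Krt8 and Krt18 are shown by their promoters because their levels moved together across the 8 arrays (Pearson r = 0.93, and 0.92 for deviations from the genotype means, a description over arrays that share the comparison). In the RefSeq table only predicted genes lie between the pair on mouse chromosome 15, and they are transcribed away from each other. The sequences are RefSeq's, build GRCm38.p6, with 250 bases before and 50 after the annotated start, at chr15:102004293-102004592 (minus strand) for Krt8 and chr15:102027966-102028265 (plus strand) for Krt18. Capitals mark matches, on either strand, to the cores of 7 known motifs. These were the box TATAAA near many start sites, the so-called GC-rich box GGGCGG, the letters ATTGAT bound by ONECUT factors and the letters ACAATG bound by SOX factors. The others were the symmetric E-box CAGCTG, the further E-box CACCTG, and the AP-1 site TGANTCA.
Krt8: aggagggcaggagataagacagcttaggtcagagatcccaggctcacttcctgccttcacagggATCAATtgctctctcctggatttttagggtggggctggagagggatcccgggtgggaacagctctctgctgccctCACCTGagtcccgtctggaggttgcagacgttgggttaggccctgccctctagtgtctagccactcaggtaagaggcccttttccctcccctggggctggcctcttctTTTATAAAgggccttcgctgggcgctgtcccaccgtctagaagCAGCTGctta
Krt18: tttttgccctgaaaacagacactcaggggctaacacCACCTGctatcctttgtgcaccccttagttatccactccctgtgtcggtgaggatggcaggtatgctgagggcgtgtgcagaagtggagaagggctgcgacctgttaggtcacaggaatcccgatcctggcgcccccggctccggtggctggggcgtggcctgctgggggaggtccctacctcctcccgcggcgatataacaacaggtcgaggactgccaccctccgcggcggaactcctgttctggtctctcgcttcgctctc
The Krt8 window holds ATTGAT, on the other strand at position -186 from the start, a run found in 7.54% of 32851 mouse promoters of the same length. It also holds CACCTG at -111, CAGCTG at 41 and TATAAA on both strands in overlapping positions, at -3 and -1. The Krt18 window holds CACCTG at -214 and none of the other letters searched. CACCTG occurs in 20.2% of all promoters, CAGCTG in 16.3% and TATAAA in 13.6%, and CACCTG is the run that both windows hold.

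MUC1 is the transmembrane mucin of the apical surface of duct and other secretory epithelia, and its row was the brightest of the 9. Muc1 read 8.37, 7.91, 8.03 and 8.52 in KO 1 to KO 4, and 9.47, 8.98, 9.55 and 9.24 in WT 1 to WT 4. Every KO array lay below every WT array. The mean was 8.21 ± 0.28 in KO and 9.31 ± 0.26 in WT (SD). The change was -1.10 ± 0.18 (95% interval -1.50 to -0.71, limma adjusted p = 0.00456, exact permutation p = 0.0286), and it was called in each of the 19 alternatives, at -1.34 to -0.97. Among the 268 genes with a mean level of 8 or more, 14.2% were called lower.

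The promoter of Muc1 is shown because it belongs to the fall that passed at high signal. It lies at chr3:89228806-89229105 on the plus strand (RefSeq, GRCm38.p6), with capitals for the same letters as above.
Muc1: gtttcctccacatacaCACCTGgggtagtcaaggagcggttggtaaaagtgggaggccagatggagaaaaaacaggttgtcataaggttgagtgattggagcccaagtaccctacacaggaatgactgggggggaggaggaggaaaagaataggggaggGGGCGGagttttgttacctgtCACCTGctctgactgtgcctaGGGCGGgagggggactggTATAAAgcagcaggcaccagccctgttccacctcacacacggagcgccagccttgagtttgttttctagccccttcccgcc
It holds TATAAA at -31, GGGCGG at -91 and -49, and CACCTG at -234 and -70. GGGCGG occurs in 35.7% of all promoters. RefSeq sequence was at hand for 6 of the 9 genes, Sox9, Krt19 and Tff1 being the others. In those 6 no window held ACAATG, the core letters of SOX motifs, or TGANTCA, the AP-1 letters, which occur in 12.6% and 7.81% of all promoters.

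TFF1 is a small secreted trefoil peptide, made chiefly by gastric surface cells and turned on in mucinous pancreatic duct lesions. Tff1 read 2.65, 2.37, 2.70 and 2.72 in KO 1 to KO 4, and 2.95, 3.71, 3.63 and 3.79 in WT 1 to WT 4. The groups did not overlap, although WT 1 lay closer to the KO arrays than to the other WT arrays. The change was -0.91 ± 0.19 (95% interval -1.33 to -0.49, limma adjusted p = 0.0112, exact permutation p = 0.0286). Among males only it was -0.86 and lost its call (limma adjusted p = 0.0748). The row was dim, at percentile 59 of all genes, and signal over background is unknown here.

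Gastric epithelium markers were followed beside Tff1. Of 12 measured, 0 were called higher and 2 lower (16.7%, against 6.99% of all genes), at a list median of -0.12 against -0.06 for all genes. Those called were the proton pump subunit Atp4b (-0.51 ± 0.16, limma adjusted p = 0.0439) and the gastrokine Gkn2 (-0.39 ± 0.12, limma adjusted p = 0.0454). Summed on the linear scale, the list read 1155 to 1846 in KO and 1832 to 2189 in WT, nearly all of it the trefoil gene Tff2 (10.13 to 10.82 log2 units in KO, 10.80 to 11.07 in WT). The gastric genes Gkn1, Cblif and Pgc all read under 2.5 on every array, near the floor of the table, and no marker was at 0. Both calls of this list were lost in most alternatives, Atp4b being called in 4 of 18 and Gkn2 in 3 of 18. The part of stomach tissue in the Tff1 values was not tested.

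CFTR, the chloride and bicarbonate channel of the duct apical membrane, gave no call. Cftr read 1.70, 1.61, 2.27 and 1.69 in KO 1 to KO 4, and 1.86, 1.83, 2.05 and 1.84 in WT 1 to WT 4. The change was -0.08 ± 0.16 (95% interval -0.43 to 0.28, limma adjusted p = 0.729, exact permutation p = 0.657). This row lay at percentile 32.6 of all genes, and the sign of the change turned after median centring, quantile normalization and cyclic loess.

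The arrays with number 2 stood apart for the duct genes. In 6 of the 9 (Onecut1, Krt8, Krt18, Krt19, Muc1 and Cftr) KO 2 was the lowest KO array and WT 2 the lowest WT array, a pattern seen in 11.7% of all genes. The general epithelial gene Cdh1 (E-cadherin) was also lowest there, at 6.68 in KO 2 and 6.56 in WT 2, against 7.12 to 7.58 in the other KO and 6.80 to 7.30 in the other WT arrays. The mesothelial markers ran the other way, and mesothelium also makes keratins 8, 18 and 19. Summed on the linear scale, the 10 mesothelial markers read 374 in KO 2 and 190 in WT 2, against 122 to 235 in the other KO and 83.1 to 180 in the other WT arrays. Upk3b, for example, read 6.42 in KO 2 and 5.13 in WT 2 (Cdh1 and Upk3b were chosen after their values were seen). Msln read 2.79 in KO 2, below 3.07 in KO 4, and 2.99 in WT 2, the highest WT array. Other lists also ran high in arrays with number 2. Stellate markers summed to 2188 in KO 2, the highest KO array, and to 877 in WT 2, below 972 in WT 3. Macrophage markers summed to 1704 in KO 2, below 1793 in KO 4, and to 799 in WT 2, the highest WT array. Endothelial markers were highest in KO 2 (249) and lowest in WT 2 (189). The part of these cell types in the duct gene values was not tested. Of the 10 mesothelial markers, 0 were called between genotypes, against 14.6% higher and 6.99% lower of all genes. At a mean level of 2 to 4, which holds the list's median level (3.92), the shares were 12.1% and 9.35%.

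**Figure D3:**
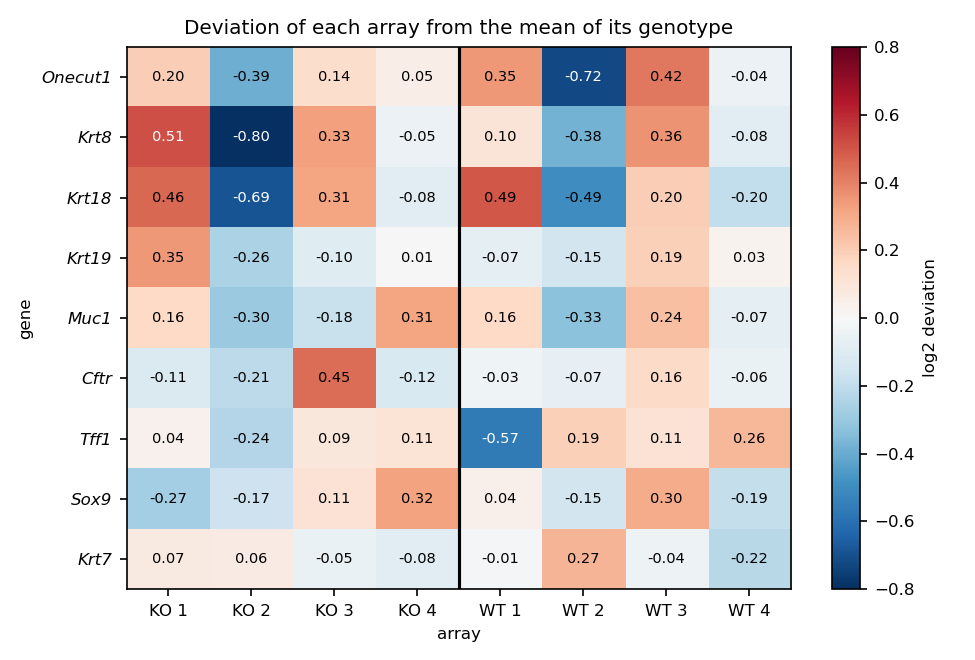
Deviation (log2, colour and number) of each array (x axis, KO left of the line, WT right) from the mean of its genotype, for the 9 duct genes (y axis). The columns KO 2 and WT 2 are low for Onecut1, Krt8, Krt18, Krt19 and Muc1, while Krt7 is above its mean in both.

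Among themselves, once genotype means were removed, Onecut1 and Krt18 followed each other (r = 0.86 over 8 arrays), as did Onecut1 and Krt8 (r = 0.80), Krt8 and Krt19 (r = 0.80) and Onecut1 and Muc1 (r = 0.79). Krt7 ran against the rest, with r = -0.59 to Onecut1. These are descriptions of 8 arrays in which replicate 2 weighs heavily. Out of 6049 genes with a mean level of at least 4, those nearest to each called gene were, by the same deviations, Copz2 (r = 0.98), Tmed9 (0.97) and Hectd3 (0.96) for Krt19. For Muc1 they were Atpif1 (0.97), Snrpd3 (0.96) and Uap1 (0.96), and for Tff1 Trir (0.99), Pxn (0.98) and Wfs1 (0.97). Spearman's rho ran from 0.81 to 0.98 over these 9 genes. Without the 2 arrays farthest from the median the r values were 0.85 to 0.90 for Krt19, 0.91 to 0.97 for Muc1 and 0.75 to 0.87 for Tff1. Being the best of so many over 8 arrays, these genes are named only as the nearest in pattern within genotypes. The deviations leave out the change between genotypes, which often had the other sign. The genes nearest to Muc1 changed by 0.42 to 0.602 and those nearest to Tff1 by 0.33 to 0.41, while Muc1 and Tff1 fell. Near Krt19, which rose, Copz2 was called lower (limma adjusted p = 0.00248), while Tmed9 (1.24) and Hectd3 (0.17) had positive changes.

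Other duct and progenitor transcription factors gave 3 higher and 1 lower of 18 measured, at a median change of 0.23. These shares were 16.7% and 5.56%, against 14.6% and 6.99% of all genes. The Hippo co-activator Wwtr1 (TAZ) rose by 0.80 ± 0.17 (limma adjusted p = 0.0121), the ETS factor Ehf by 0.71 ± 0.23 (limma adjusted p = 0.0493) and the SOX factor Sox4 by 0.50 ± 0.16 (limma adjusted p = 0.0498). Pdx1, needed for pancreas formation and for beta cells, fell by 0.72 on the log2 scale (limma adjusted p = 0.0357). The call of Wwtr1 held in 16 of 19 alternatives, and those of the other 3 in at most 8. Wwtr1 entered the level filter only through its KO mean (4.46, against 3.66 in WT). Hes1, the Notch target of duct and centroacinar cells, did not pass (0.27 ± 0.13, limma adjusted p = 0.141). Higher factors numbered 0 among males only, after quantile normalization and after cyclic loess, and 1 without KO 3, KO 4, WT 3 or WT 4. They numbered 4 after median centring, with array weights, with the replicate block and without KO 2.

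In the Notch pathway, which directs progenitors toward duct fate, 1 of 14 measured genes was higher (7.14%) and 3 lower (21.4%), at a median of -0.27. Over all genes the shares were 14.6% and 6.99%. Rbpj, the DNA-binding partner of Notch, rose by 1.19 ± 0.23 (limma adjusted p = 0.00931). The ligands Jag2 (-0.50 ± 0.12, limma adjusted p = 0.0193) and Dll1 (-0.56 ± 0.15, limma adjusted p = 0.0255) and the target Heyl (-0.70 ± 0.20, limma adjusted p = 0.0328) fell, all of them dim. Lower genes numbered 5 without WT 1, 1 without KO 2, WT 2 or WT 4, and 0 without KO 4. Among males only no Notch gene was called. With the level filter 5 of the genes were tested, 3 of them higher and 0 lower, and their median was 0.54. Under the same filter 2963 of all 6991 genes tested were higher and 333 lower, at a median of 0.47. The filter takes the mean of the higher group, so a gene could enter through 1 group alone. Higher Notch genes numbered 3 after median centring, and 0 after quantile normalization and after cyclic loess. The call of Rbpj was lost among males only and after those last 2 scalings, and its change was 0.63 when the gene's rows were averaged. Dll1 was called in 8 of 18 alternatives, at -0.25 with averaged rows, and Heyl in 10 of 18.

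Outside the 4 keratins, 0 of 13 measured keratins were higher and 1 was lower (7.69%, against 6.99% of all genes). The lower gene was the mucosal Krt4 (-0.49 ± 0.15, limma adjusted p = 0.0382, called in 6 of 18 alternatives). Krt20, a keratin of gut epithelium, had a change of 0.79 ± 0.40 (limma adjusted p = 0.174). Of 12 measured mucins and trefoil peptides, 0 were higher and 1 was lower (8.33%, against the same 6.99%). That gene was the membrane mucin Muc3 (-0.62 ± 0.14, limma adjusted p = 0.0142). Muc4, Muc5ac and Muc6 stayed under 2 on average in both groups. Of the 19 measured genes of duct bicarbonate and fluid transport, the proteins that drive duct secretion, 1 was higher and 2 were lower. These shares were 5.26% and 10.5%, against 14.6% and 6.99% of all genes. The anion exchanger Slc26a6, a partner of CFTR, fell by 0.75 on the log2 scale (limma adjusted p = 0.0201), as did the carbonic anhydrase Car4 by 0.56 (limma adjusted p = 0.0374, called in 5 of 18 alternatives). The sodium pump subunit Atp1b1 rose by 0.91 ± 0.25 (limma adjusted p = 0.0306, called in 11 of 19). The chloride channel Ano1 (0.05 ± 0.17, limma adjusted p = 0.843) and the cotransporter Slc12a2 (0.12 ± 0.20, limma adjusted p = 0.675) did not pass. No transport gene was called without KO 3 or among males only, and none was higher without KO 4, WT 2 or WT 3. After quantile normalization 0 transport genes were higher and 4 lower, and after cyclic loess 0 were higher and 3 lower.

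Among duct surface and secreted markers, 8 of 25 measured genes were higher (32%) and 0 lower, at a median change of 0.50 and a median level of 5.40. The rises of smallest p were those of the calcium pump Atp2a3 (1.20 ± 0.25, limma adjusted p = 0.012), the annexin Anxa3 (1.64 ± 0.35, limma adjusted p = 0.0129), the epithelial adhesion molecule Epcam (1.13 ± 0.26, limma adjusted p = 0.0154) and the surface glycoprotein Cd24a (0.86 ± 0.21, limma adjusted p = 0.0187). Epcam read 6.84, 5.85, 6.57 and 6.55 in KO 1 to KO 4, and 5.60, 4.71, 5.66 and 5.34 in WT 1 to WT 4, so KO lay above WT throughout. The share of 32% lies below the 37.9% called higher among all genes with a mean level of 4 to 6. The count was 0 among males only, 2 after quantile normalization, 3 after cyclic loess, 4 without KO 3, KO 4 or WT 3, and 5 without WT 4 or with sex as a term. It was 11 after median centring and with the replicate block, and 9 with array weights. Over all 22180 genes, 4390 were called higher after median centring, 3698 with the block and 3749 with array weights. There were 770 among males only, 1228 after quantile normalization and 1521 after cyclic loess.

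Of 27 measured regulators of the acinar-to-ductal change, 6 were higher (22.2%) and 1 was lower (3.7%), at a median of 0.31. Over all genes the shares were 14.6% and 6.99%. Among genes with a mean level of 4 to 6, the range that holds the list's median level, 37.9% were called higher. With the replicate block 10 of the regulators were higher, as were 3698 of all 22180 genes. The NF-kB subunit Rela (1.36 ± 0.18, limma adjusted p = 0.00225), the EGF receptor Egfr (1.17 ± 0.22, limma adjusted p = 0.00724) and the chromatin factor Arid5b (1.12 ± 0.21, limma adjusted p = 0.00775) rose. The secreted lectin Reg3a fell by 1.71 on the log2 scale (limma adjusted p = 0.00669). Higher regulators numbered 4 without KO 2, WT 1 or WT 3, 3 without KO 4, and 2 among males only. They numbered 3 after quantile normalization and after cyclic loess.

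The acinar genes, the other side of the change, gave 0 higher and 10 lower of 26 measured (38.5% lower), at a median of -0.24. The share called lower was 6.99% over all genes and 14.2% among genes with a mean level of 8 or more. The list's median level was 10.73. The acinar falls of smallest p were those of Amy2b (-1.89 ± 0.14), Cela3a (-3.24 ± 0.24), Bhlha15 (-1.42 ± 0.12) and Ctrc (-2.24 ± 0.23). Their limma adjusted p was 0.000437, 0.000437, 0.00057 and 0.00111 in that order. Amylases and elastases have near-identical copies that could share probes. Summed on the linear scale the acinar list read 41364 to 46909 in KO and 51618 to 54221 in WT.

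**Figure D4:**
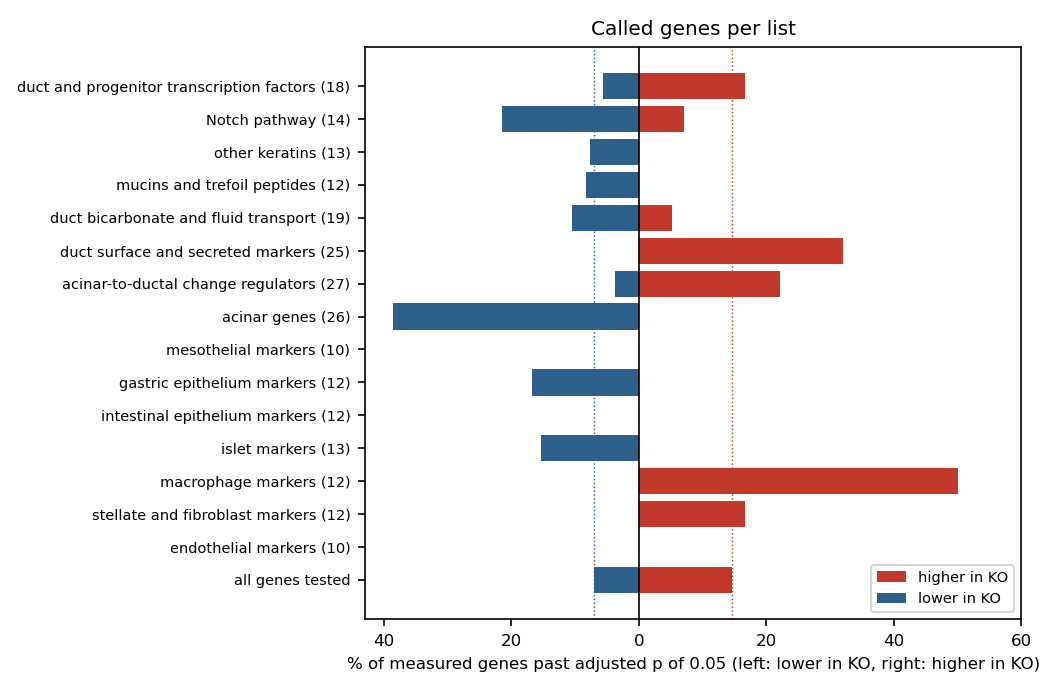
Share of each list's measured genes (number in brackets) that passed an adjusted p of 0.05 in limma, with those lower in KO to the left and those higher in KO to the right. Dotted lines mark the shares over all genes, 6.99% lower and 14.6% higher. Acinar genes have 38.5% lower, duct surface markers 32% higher and macrophage markers 50% higher. Of all genes with a mean level of 8 or more, 14.2% were called lower. Of those at 4 to 6, which holds the median levels of the duct surface and macrophage lists, 37.9% were called higher.

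Markers of other cells were counted in the same way, and the summed levels of KO and WT arrays overlapped in each of these lists. Macrophage markers gave 6 higher of 12 (50%), against 14.6% of all genes and 37.9% of genes with a mean level of 4 to 6. Their median level was 5.19, and their sums were 647 to 1793 in KO and 227 to 799 in WT. The rises of smallest p were those of Fcgr1 (1.92 ± 0.27, limma adjusted p = 0.00276), Adgre1 (2.29 ± 0.38, limma adjusted p = 0.00504), Ccr2 (1.66 ± 0.29, limma adjusted p = 0.00617) and C1qc (1.23 ± 0.26, limma adjusted p = 0.0123). Stellate and fibroblast markers, at a median level of 5.44, gave 2 higher of 12 (16.7%, against the same shares). These were the matrix proteins Postn (1.72 ± 0.24, limma adjusted p = 0.00254) and Lum (1.14 ± 0.24, limma adjusted p = 0.011). The stellate sums were 616 to 2188 in KO and 423 to 972 in WT. Islet markers gave 0 higher and 2 lower of 13 (15.4% lower, against 6.99% of all genes), with sums of 299 to 1089 in KO and 283 to 857 in WT. The lower genes were the factors Neurod1 (-0.73 ± 0.17, limma adjusted p = 0.016) and Mafa (-0.77 ± 0.23, limma adjusted p = 0.0377). Intestinal (39.9 to 45 in KO, 43.8 to 52.9 in WT) and endothelial markers (143 to 249 in KO, 189 to 228 in WT) gave 0 calls of 12 and 0 of 10. Over all genes 14.6% were called higher and 6.99% lower. The median levels of these lists were 1.67 and 4.14. Of all genes below 2, 0.486% were called higher and 6.93% lower, and of those at 4 to 6, 37.9% and 3.27%. Macrophage markers called higher numbered 12 with the replicate block, 11 without KO 1, 9 without WT 2, 4 without KO 3 or KO 4, and 1 among males only. Stellate markers called higher numbered 7 with the block and 6 without KO 1. Over all 22180 genes, higher calls numbered 3241 in the main fit, 3698 with the block, 2711 without KO 1 and 2576 without WT 2. They numbered 2162 without KO 3, 1781 without KO 4 and 770 among males only. No marker of these lists was at 0, and their part in the duct gene values was not tested.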

How the data were processed

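Total RNA of mouse pancreas was hybridised to 8 whole-transcript arrays, and the authors deposited 1 table of 41345 rows. The submitters' processing notes name limma, oligo and RMA, without versions or roles. The deposited table's values run over 0.044 to 12.47 and were taken as log2 expression. The sources used here do not give background levels, scan batches or a genome build, and the number of arrays limits the precision. All columns were mapped by name.

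Rows with 1 gene symbol in the platform annotation were kept (23521), with the row of highest mean per gene, giving 22180 genes. KO was compared with WT by limma 3.58.1 (lmFit, eBayes) in R 4.3.3 without a block, adjusted by Benjamini-Hochberg over all genes at a threshold of 0.05. Single values were compared by exact two-sided permutation (scipy 1.17.1), taking arrays as unpaired.

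The members, lists and tests were chosen with earlier results of these data known, and the promoter motifs after the sequences were seen. Named by rule are the 9 duct genes, up to 4 called genes of smallest p per list (all where 5 or fewer were called), and the 3 nearest genes in pattern. Uncalled list genes named outside this rule were Hes1, Krt20, Muc4, Muc5ac, Muc6, Tff2, Ano1, Slc12a2, Gkn1, Cblif and Pgc. Lmna, Cpa1, Ctrb1, Cdh1, Upk3b, Msln and Agr2 were also named outside it. The lists cover duct and progenitor factors, Notch, other keratins, mucins and trefoil peptides, duct transport, duct surface markers, regulators of the acinar-to-ductal change, acinar genes, and mesothelial, gastric, intestinal, islet, macrophage, stellate and endothelial markers.

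Replicate numbers 1 to 4 occur in both groups. Deviations of same-numbered arrays from their genotype means correlated across genes at 0.26, 0.17, 0.11 and 0.14, each above 0.1. Among different-numbered arrays, KO 2 with WT 4 (0.125) and KO 1 with WT 3 (0.106) were also above 0.1. The check does not fully separate same-numbered arrays, since KO 2 with WT 4 lay above KO 3 with WT 3 (0.11). The main limma fit and the permutation tests took arrays as unpaired. Same-numbered pairs served only for description and for the alternative with the replicate number as a block. Their pairing rests on this check of the data and not on the labels. For pairs no exact test could reach 0.05.

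On simulated data of 22180 genes with 200 changed, the KO against WT test found 79% of the genes changed by 1 log2 unit and 96% of the genes changed by 2 (7.89% of calls were false). The alternatives were each array left out, males only, sex or replicate number as a term, 3 other scalings and trend with robust eBayes. The others were array weights, a level filter of 4, the mean of a gene's rows and all rows. The level filter kept genes whose mean in the higher group was at least 4, so a gene could enter through 1 group alone. List counts under the alternatives were added after seeing the data.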

Additional observations from a re-analysis of the deposited data

Results flagged for a closer look

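Of 88 groups of 4 arrays, 6 held an array whose gap to its nearest neighbour took up more of the group's range than Dixon's 95% limit, where chance gives about 1 in 20. Cftr read 2.27 in KO 3, against 1.61 to 1.70 in the other KO arrays, and 2.05 in WT 3, against 1.83 to 1.86 in the other WT arrays. Among the list genes, Anxa3 read 5.42 in WT 2, against 4.25 to 4.37 in the other WT arrays. Amy2b read 7.99 in KO 1, against 7.60 to 7.66 in the other KO arrays. Cela3a read 6.39 in WT 1, against 6.71 to 6.75 in the other WT arrays. Fcgr1 read 3.32 in WT 2, against 2.25 to 2.36 in the other WT arrays.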

How the results depend on the processing

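Krt19 and Muc1 kept their direction and call in all 19 alternatives, and Tff1 in 17 of the 18 that tested it. Krt19 entered the level filter only through its KO mean. Duct genes called higher numbered 2 after median centring and with array weights, against 1 in the deposited scaling, and 1 to 2 with an array left out. Duct genes called lower numbered 1 among males only and with the level filter (which leaves Tff1 untested), 4 after cyclic loess and after a second quantile normalization, against 2 in the deposited scaling, and 2 to 3 with an array left out. Cftr changed sign, uncalled, to 0.0861 after the second quantile normalization, 0.0591 after median centring and 0.126 after cyclic loess. With the replicate block 1 duct gene was called higher and 2 lower, and no duct gene changed its call. Quantile normalization makes the arrays' spread equal by construction, and the causes of these changes were not tested. Over all genes, higher and lower calls numbered 3241 and 1551, against 1228 and 1142 after quantile normalization, 1521 and 1178 after cyclic loess, 4390 and 615 after median centring, 770 and 145 among males only, and 1781 and 459 without KO 4. These calls numbered 3698 and 1348 with the replicate block, 3749 and 2314 with array weights, 2711 and 936 without KO 1, and 2576 and 1146 without WT 2. Median centring moved the median change of all genes to 0.08, against -0.06. Of 35 named list genes, 8 kept their call in every alternative that tested them and 27 lost it in at least 1. Signal over background is unknown, which limits Cftr, Krt7 and Tff1 most.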

Other observations

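Agr2, a disulfide isomerase of mucus-secreting and duct-lesion cells, was picked out after its values were seen. It read 5.64, 2.70, 6.73 and 5.26 in KO 1 to KO 4, and 3.45, 2.51, 3.26 and 2.61 in WT 1 to WT 4. KO 2 lay among the WT arrays, and the other 3 KO arrays lay above all of them. The change of Agr2 was 2.12 ± 0.70 (limma adjusted p = 0.0551). It passed without KO 2 (2.92, limma adjusted p = 0.00408), with the replicate block (limma adjusted p = 0.0149), with array weights (limma adjusted p = 0.0394) and after median centring (limma adjusted p = 0.0444). It also passed with the level filter (limma adjusted p = 0.0266). Agr2 entered that filter only through its KO mean, every WT array being under 4, so this pass is no separate support. The limma adjusted p of Agr2 over the 19 alternatives ran from 0.00408 to 0.213.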
